A study of Mus musculus with 6 samples.

Results

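Intestinal stem cell markers were examined in the irradiated mouse intestine as a set of 10 genes, of which 6 mark the cycling stem cells of the crypt base (Lgr5, Olfm4, Ascl2, Smoc2, Msi1 and Prom1) and 4 have been used for reserve stem cells (Bmi1, Hopx, Lrig1 and Tert). All 10 genes had a probe on the Illumina MouseWG-6 v2 array, with 18 probes in all among 45281, and each gene was read by the probe with the highest mean over the 6 arrays, as 10 of 19057 genes. The members were listed by name, with earlier results of these data known. The arrays hold total RNA of intestines from male C57 mice, 4 weeks of age, that received 7 Gy of total body radiation, with 3 mice given free ubiquitin (free Ub) and 3 given phosphate buffered saline (PBS). The labels place the injection after radiation and the collection 3.5 days after it. The study's methods give older mice and injection followed by radiation, and a figure legend gives an earlier time for these arrays. On the order the study is not uniform. The legend of its PCR check of array genes places the injection after radiation, as the labels do. All 6 mice were irradiated, so no difference here sets irradiated against unirradiated tissue.

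The intestinal epithelium is renewed from crypts, where cycling stem cells lie wedged between Paneth cells at the base and are kept by Wnt and Notch signals. Lgr5 encodes a receptor for R-spondins that strengthens Wnt signals, Ascl2 a Wnt-driven transcription factor of these cells, and Olfm4 a secreted glycoprotein abundant in them. Cells higher in the crypt, marked in lineage tracing by genes such as Bmi1, Hopx, Lrig1 and Tert, were described as slowly cycling reserve cells, although later work found several of these transcripts in cycling stem cells too. Cycling stem cells are sensitive to radiation, and crypts regrow from survivors within days.

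Signals are given on the log2 scale as the authors normalized them, and a value within 0.01 of the lowest of its array is called at the floor here, where its size is not measured. Between 32.2% and 33.7% of probes were at the floor on each array. Spread depended on brightness: the median SD within groups was 1.18 log2 for probes with a mean of 0.5 to 2, and 0.18 for means above 8. Epithelial identity was clear in all 6 intestines, with Vil1, the actin bundler of the brush border, between 12.51 and 12.87 with free Ub and between 12.49 and 12.61 with PBS. Pancreatic enzyme transcripts were also present and differed greatly between mice of each group: the summed linear signal of 7 such genes ranged from 1329 to 80328 in free Ub intestines and from 9200 to 91263 in PBS intestines. The extremes were free Ub replicate 3 at the low end and PBS replicate 3 and free Ub replicate 1 at the high end. In whole tissue, fewer cells of a type and less RNA per cell cannot be told apart.

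Of the 10 markers 0 passed an adjusted p under 0.05 in limma (Benjamini-Hochberg over all 45281 probes), where 0.053% of all probes and 0.0577% of all genes, each read by its highest probe, did. At an unadjusted p under 0.05 there was 1 member higher with free Ub, Msi1, and 0 lower, beside 2.34% of all genes higher and 3.4% lower, or 5.74% in either direction. The means of 9 members were above those of PBS and that of Lgr5 was below, where 44.3% of all genes had a higher and 49.7% a lower mean. The median difference of the 10 was 0.46 log2, against 0.00 over all genes. Because the members were chosen with earlier results of these data known, these comparisons with all genes are descriptions only. The count of members with a higher mean moved with single mice. It was between 6 and 10 of 10 when 1 mouse was left out, with 6 without free Ub replicate 2. Only 6 members, Lgr5, Olfm4, Ascl2, Prom1, Hopx and Lrig1, were above the floor on all 6 arrays. Their median difference was 0.29 log2, against -0.03 over all genes above the floor on all arrays. The median of 0.46 thus includes differences that rest on floor values.

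**Figure D1:**
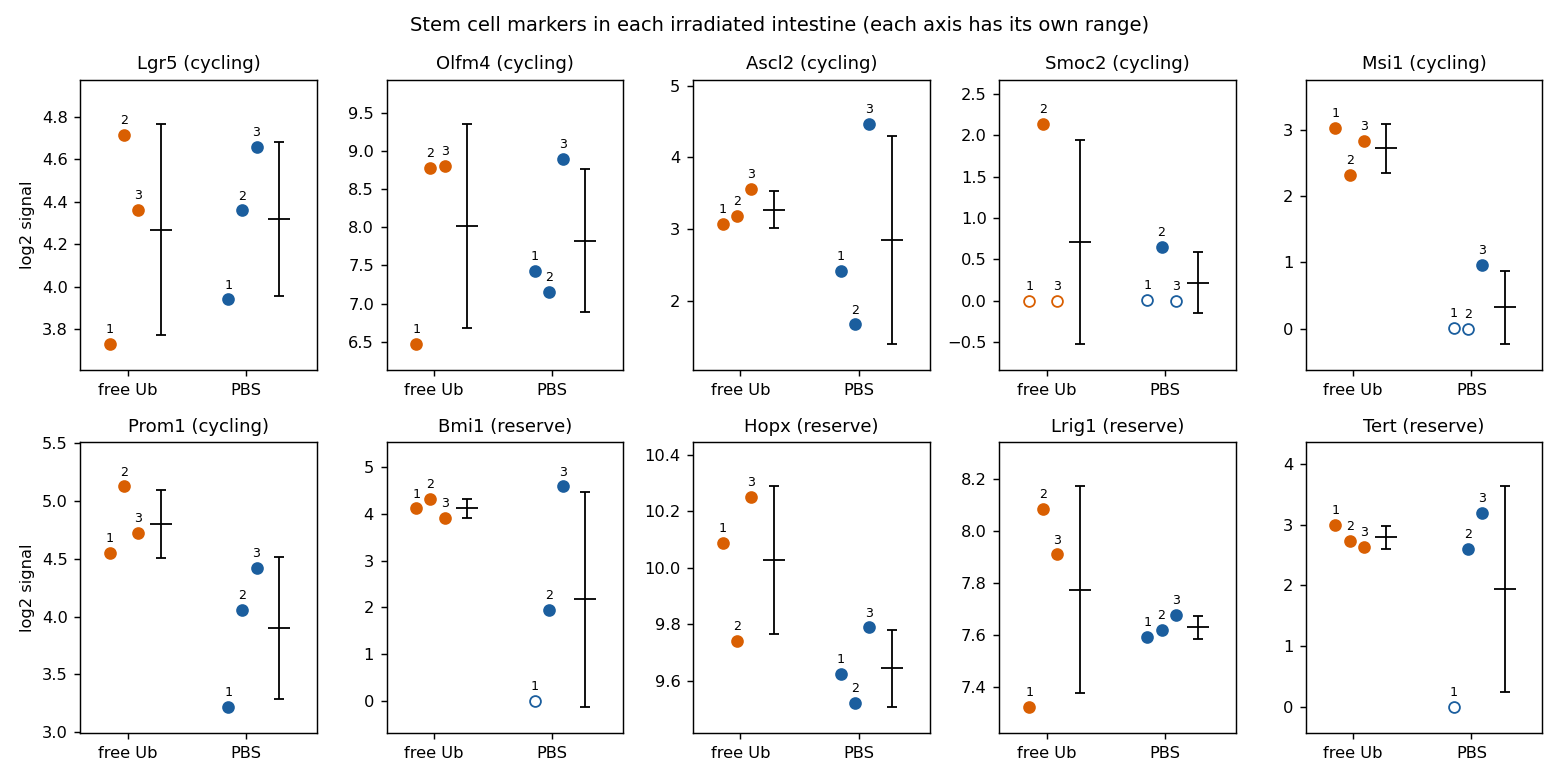
log2 signal of each stem cell marker in the 3 free Ub and 3 PBS intestines, numbered by replicate, with the mean and SD beside the points and open circles for values at the floor. Msi1 and Prom1 are the members whose groups do not overlap, and each axis has its own range.

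The 250 bases before the start of Olfm4 and of the 2 starts of Hopx are shown because Olfm4 carried the largest range among free Ub intestines of the members above the floor on all 6 arrays, and Hopx was the reserve member with the smallest p. The sequences are from RefSeq (GRCm38.p6). Capitals mark TGGGAA, the core letters bound by RBPJ, the DNA-binding partner of Notch, in Olfm4, and ATTGG, the CCAAT box read on the other strand, in Hopx.
Olfm4, chr14:80000052-80000301, plus strand: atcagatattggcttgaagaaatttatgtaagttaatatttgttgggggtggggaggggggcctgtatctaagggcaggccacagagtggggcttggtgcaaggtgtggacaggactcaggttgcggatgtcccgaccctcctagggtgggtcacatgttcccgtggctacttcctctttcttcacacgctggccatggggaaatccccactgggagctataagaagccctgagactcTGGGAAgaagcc
Hopx, downstream start, chr5:77095268-77095517, minus strand: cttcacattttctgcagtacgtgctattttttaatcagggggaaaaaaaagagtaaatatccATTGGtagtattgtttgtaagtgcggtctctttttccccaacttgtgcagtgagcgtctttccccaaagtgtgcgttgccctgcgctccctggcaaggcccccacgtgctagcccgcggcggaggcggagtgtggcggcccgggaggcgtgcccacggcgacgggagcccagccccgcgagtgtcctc
Hopx, upstream start, chr5:77115124-77115373, minus strand: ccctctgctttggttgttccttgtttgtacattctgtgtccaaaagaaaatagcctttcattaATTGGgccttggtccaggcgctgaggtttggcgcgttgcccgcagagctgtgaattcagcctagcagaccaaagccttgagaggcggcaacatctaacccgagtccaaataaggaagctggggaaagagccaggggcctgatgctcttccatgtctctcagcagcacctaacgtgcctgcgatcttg
RefSeq windows were matched for 7 of the 10 members, with 9 windows in all, and those of Lgr5, Smoc2 and Msi1 were not analysed here. On either strand, TGGGAA lay in 4 of the 9 windows, against 21.6% of 32851 promoter windows of the same length, and began 12 bases before the start in Olfm4. CCAAT lay in 6 of the 9, against 33.8% of all. The letters CTTTGAA and CTTTGTT, with the forms CTTTGAT and also CTTTGTA, read by the TCF/LEF factors of the Wnt pathway, lay in 0 of the 9 windows and in 14.8% of all. These are matches of letters, not measured binding, and a window without them says nothing of sites farther away.

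Lgr5, the R-spondin receptor that defines the cycling stem cell, did not separate free Ub from PBS. Its signal was 3.73, 4.72 and 4.36 in the free Ub intestines, against 3.94, 4.36 and 4.66 in the PBS intestines. The groups overlapped over nearly their whole range, and free Ub replicate 1 held the lowest value and free Ub replicate 2 the highest. The means were 4.27 ± 0.50 with free Ub and 4.32 ± 0.36 with PBS (SD, n = 3 each), a difference of -0.05 log2 with a 95% interval of -0.94 to 0.84 (limma, adjusted p = 0.979). In fold terms the interval runs from 0.522 to 1.79 times PBS, which holds both a clear fall and a clear rise. A second, dimmer probe read the floor, 1.75 and 2.39 with free Ub, against the floor, 2.57 and 2.30 with PBS.

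Olfm4, the secreted glycoprotein of crypt base cells and a Notch target in mouse, varied more between mice than between treatments. It read 6.47, 8.78 and 8.81 with free Ub, against 7.43, 7.15 and 8.90 with PBS. In each group at least 1 intestine lay near 8.8 and at least 1 at or below 7.43, so that a range of 2.34 log2 in the free Ub group and of 1.75 in the PBS group surrounded a difference of 0.19 (95% interval -2.16 to 2.55, adjusted p = 0.979 in limma). Without free Ub replicate 1 the difference was 0.97, and it was below 0 without any 1 of free Ub replicate 2, free Ub replicate 3, PBS replicate 1 or PBS replicate 2. The other Olfm4 probe was at the floor on 2 free Ub arrays and 1 PBS array and read at most 0.82 with free Ub and 2.50 with PBS.

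Ascl2, the transcription factor that sustains the crypt base program, had a narrow range with free Ub inside a wide one with PBS. Its highest probe read 3.07, 3.19 and 3.56 with free Ub, against 2.41, 1.67 and 4.47 with PBS. The difference of 0.42 (95% interval -1.70 to 2.54) had an adjusted p of 0.979 in limma. A second probe gave 3.22, 3.50 and 3.94 with free Ub, against the floor, 1.67 and 4.51 with PBS, and the third was at the floor on 3 arrays. PBS replicate 3 was highest and free Ub replicate 3 next on each of the first 2 probes. Smoc2, a matricellular protein enriched in Lgr5 cells, was at the floor on 4 of 6 arrays. It read 2.14 in free Ub replicate 2 and 0.65 in PBS replicate 2, and no level can be compared from these values.

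Msi1 and Prom1 were the members whose groups did not overlap, each higher with free Ub, where 3.74% of all genes were higher without overlap. No member was lower without overlap, against 6.69% of all genes. Msi1 encodes Musashi-1, an RNA-binding protein of the crypt base and early progenitors that is also known from neural progenitors. Its probe read 3.03, 2.32 and 2.83 in the free Ub intestines, against the floor, the floor and 0.96 in the PBS intestines. All 3 free Ub values lay above the highest PBS value, and the listed difference of 2.41 (limma, adjusted p = 0.340) has no measured size because 2 of the PBS values are at the floor. The second Msi1 probe read the floor, 0.99 and 2.53 with free Ub, against the floor, the floor and 1.23 with PBS, and its groups overlapped (adjusted p = 0.886). With values under 4 raised to 4, Msi1 had no differing value left to test.

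Prom1, the membrane glycoprotein prominin-1 of stem and transit-amplifying cells, was the other cycling member without overlap, and all its values on this probe were above the floor. It read 4.55, 5.13 and 4.72 with free Ub, against 3.22, 4.06 and 4.42 with PBS. The lowest free Ub value exceeded the highest PBS value by less than the range within either group. Its mean was 4.80 ± 0.30 with free Ub and 3.90 ± 0.61 with PBS (SD, n = 3 each), a difference of 0.90, or 1.87-fold (95% interval 0.945 to 3.69-fold, adjusted p = 0.872 in limma). Without PBS replicate 1 the difference was 0.56, and with array weights it was 0.59. The second probe of Prom1 overlapped, with 2.32, 3.64 and 2.43 with free Ub, against 3.15, 3.06 and 1.50 with PBS. The third, the only Prom1 probe annotated to a RefSeq transcript, was at the floor on 2 arrays of each group and had a listed difference of -0.48. For both genes the groups lay apart on 1 probe and overlapped on the others.

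**Figure D2:**
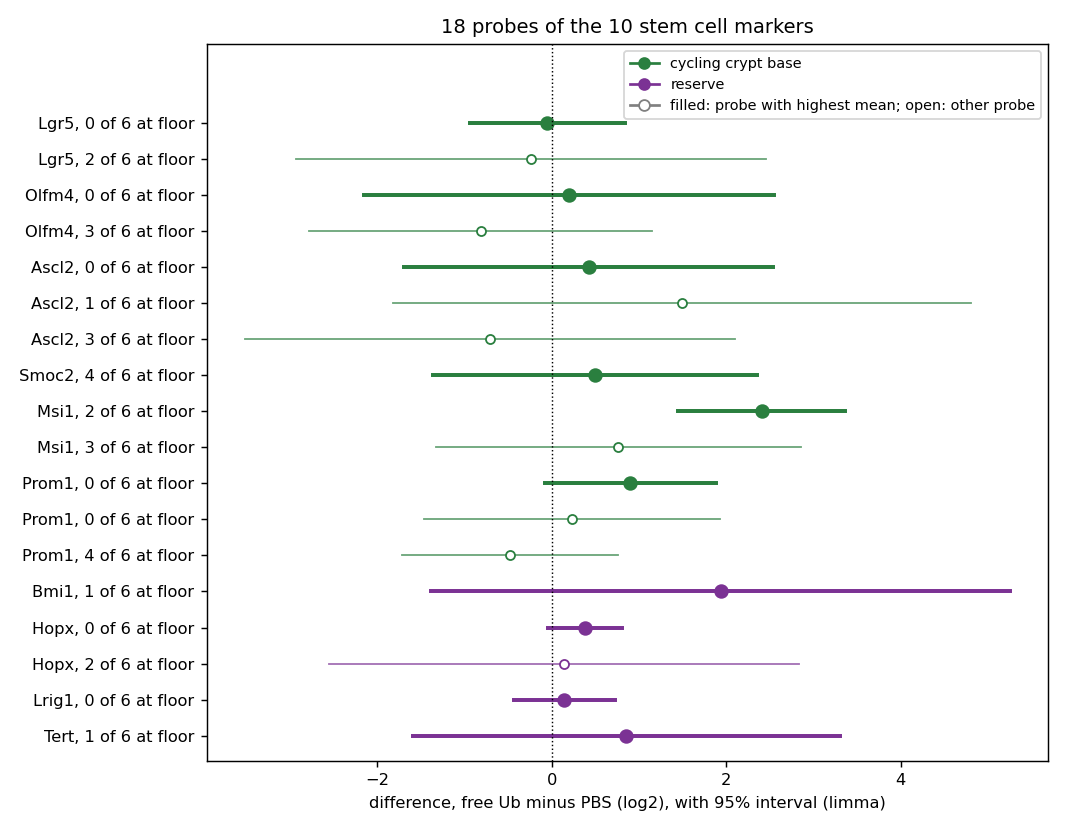
Difference between free Ub and PBS on the log2 scale for all 18 probes of the 10 markers, with 95% intervals from limma, cycling markers above and reserve markers below. The interval of 1 probe, the highest of Msi1, lies wholly above 0, and every other interval includes 0. The p-values of all 18 are above 0.05 after adjustment.

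Among reserve markers, Hopx had the smallest standard error, 0.16 log2. This gene encodes a small homeodomain protein that binds no DNA itself and marks slowly cycling cells of the crypt. It read 10.09, 9.74 and 10.25 with free Ub, against 9.62, 9.52 and 9.79 with PBS. Of the free Ub values 2 lay above every PBS value, and free Ub replicate 2 fell between PBS replicates 1 and 3. The mean was 10.03 ± 0.26 with free Ub and 9.65 ± 0.14 with PBS (SD, n = 3 each), 1.30-fold, with a 95% interval of 0.970 to 1.75-fold (adjusted p = 0.872 in limma). Leaving out each mouse in turn gave differences of 0.27 to 0.53 log2. The other Hopx probe was at the floor on 1 array of each group.

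Lrig1, a membrane protein that restrains EGF receptor family signals and so limits stem cell proliferation, differed by less than its own spread. It read 7.33, 8.08 and 7.91 with free Ub, against 7.59, 7.62 and 7.68 with PBS. The PBS values spanned 0.09 log2 and the free Ub values 0.76, with free Ub replicate 1 below all PBS values and the other 2 above. The difference was 0.14 (95% interval -0.43 to 0.72, adjusted p = 0.979 in limma) and was 0.37 without free Ub replicate 1 and -0.012 without free Ub replicate 2.

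Bmi1, a subunit of the Polycomb repressive complex that ubiquitinates histone H2A, and Tert, the catalytic subunit of telomerase, were each at the floor on 1 PBS array. Bmi1 read 4.12, 4.32 and 3.91 with free Ub, against the floor, 1.94 and 4.59 with PBS. Tert read 2.995, 2.74 and 2.63 with free Ub, against the floor, 2.60 and 3.19 with PBS. For each gene PBS replicate 1 was at the floor and PBS replicate 3 was the highest of the 6 intestines, so that the free Ub values lay inside the PBS range. The listed differences of 1.94 for Bmi1 and 0.86 for Tert (adjusted p = 0.872 and 0.899 in limma) were 0.85 and -0.11 without PBS replicate 1, and 3.14 and 1.49 without PBS replicate 3. PBS replicate 1 also had the lowest mean correlation with the other arrays over all probes, 0.930 against 0.939 to 0.941, and the largest share of probes at the floor, and the part of this in the Bmi1 and Tert values was not tested.

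The difference between cycling and reserve markers was smaller than the spread between mice. Means were higher with free Ub for 5 of 6 cycling and 4 of 4 reserve members, and the median difference was 0.46 for the cycling and 0.62 for the reserve class. The cycling median minus the reserve median was -0.16 log2, where the same contrast taken in each intestine had an SD within groups of 0.56. It was between -0.56 and 0.35 when 1 mouse was left out, so its direction was not stable. The class medians of 0.46 and 0.62 rest in part on members with floor values. For members above the floor on all arrays, 4 cycling and 2 reserve, the medians were 0.31 and 0.26. By intestine, the median deviation of the cycling members from their gene means was -0.23, 0.79 and 0.44 with free Ub, against -0.57, -0.53 and 0.22 with PBS, and that of the reserve members was 0.44, 0.38 and 0.34 with free Ub, against -1.28, -0.20 and 0.41 with PBS. By these medians the cycling members were below their means in free Ub replicate 1 and in PBS replicates 1 and 2, and the reserve members in PBS replicates 1 and 2. The value of -1.28 rests on Bmi1 and Tert at the floor, and of the reserve members above the floor on all arrays Hopx was lowest in PBS replicate 2 and Lrig1 in free Ub replicate 1.

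**Figure D3:**
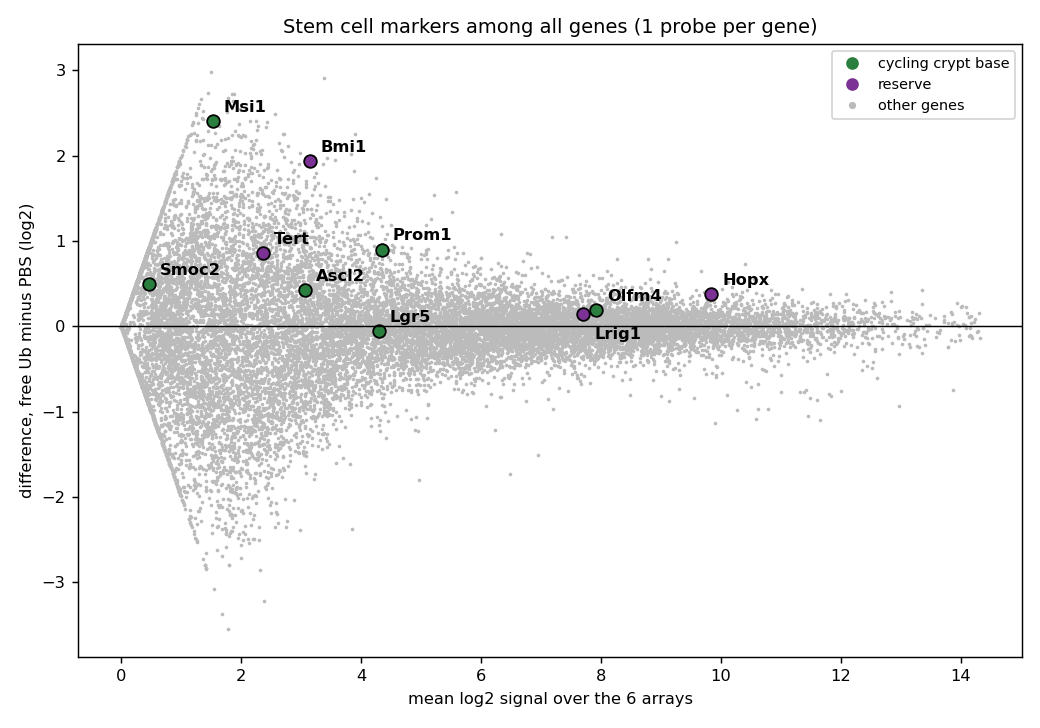
Difference between free Ub and PBS against the mean log2 signal for 1 probe of each of 19057 genes, with the stem cell markers in colour and the other genes in grey. The straight edges at low signal come from values at the floor, and Msi1, Smoc2 and Tert lie in that range of wide scatter while Hopx lies above 9 on the signal axis.

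Several members were ordered by mouse more than by treatment. Free Ub replicate 1 had the lowest signal of the 6 intestines for Lgr5, Olfm4 and Lrig1, 3 of the 6 members above the floor on all arrays. It was also the lowest for 5 of 5 measured Paneth cell markers, against 18.9% of 11923 genes above the floor on all arrays. Ang4, an antimicrobial ribonuclease of Paneth cells, read 9.72, 10.76 and 11.57 with free Ub, against 10.99, 9.77 and 11.06 with PBS. Lyz1, the Paneth lysozyme, read 13.34, 14.49 and 14.49 with free Ub, against 14.14, 14.04 and 14.49 with PBS, where 14.49 is the highest value on every array. Olfm4 and these Paneth genes were thus low in free Ub replicate 1 and PBS replicate 2 and high in free Ub replicate 3 and PBS replicate 3. Mmp7, the protease that activates mouse defensins, read 2.05, 3.71 and 5.41 with free Ub, against 4.01, 2.71 and 4.86 with PBS, and Itln1, a lectin, had a difference of -0.27. The summed linear signal of the Paneth list ranged from 13102 to 30629 with free Ub and from 20742 to 30188 with PBS. At both upper ends Lyz1 stood at the shared highest value, so these sums may be capped. The part of the Paneth signal in the Olfm4 values was not tested. Pancreatic transcripts were highest in PBS replicate 3 and free Ub replicate 1, which held the highest and the lowest Olfm4 signal. Their order was that of Olfm4 among PBS intestines and the reverse among free Ub intestines. The part of the pancreatic signal in the Olfm4 values was not tested.

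Of 12 genes of cell division above the floor on all arrays, 6 were lowest in free Ub replicate 1 and 3 in PBS replicate 2. Among all genes above the floor on all arrays, these shares were 18.9% and 11.0%. Mcm3, a subunit of the replicative helicase, was lowest in free Ub replicate 1, at 4.43 beside 5.09 and 4.95 with free Ub, against 4.81, 4.57 and 4.46 with PBS. Top2a, the topoisomerase of replicating cells, read 7.11, 8.14 and 7.96 with free Ub, against 7.34, 7.01 and 7.64 with PBS. Cdk1, the kinase of mitotic entry, read 7.30, 7.79 and 7.79 with free Ub, against 7.27, 7.05 and 7.70 with PBS, lowest in PBS replicate 2 as Top2a was. Rrm2, a subunit of ribonucleotide reductase, had a difference of 0.30 and was lowest in PBS replicate 1. Of 13 proliferation genes measured, 7 had a higher and 6 a lower mean with free Ub (median 0.02), with 0 at an unadjusted p under 0.05 and 0 after adjustment in limma. Mki67 and Ccnb1, also listed, had no probe under these names.

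**Figure D4:**
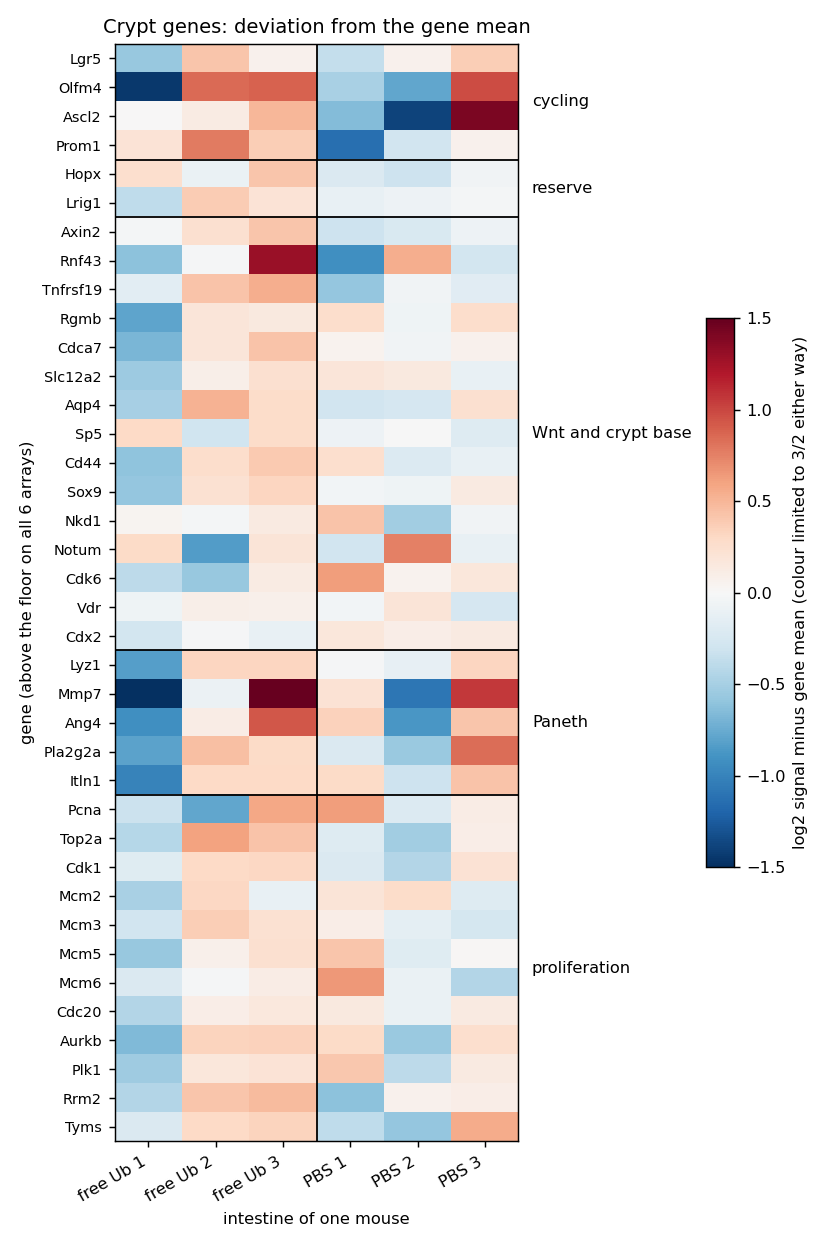
Deviation of each gene from its own mean over the 6 intestines, as log2 signal in colour, for stem cell markers, Wnt and crypt base genes, Paneth cell markers and proliferation genes above the floor on all 6 arrays. The column of free Ub replicate 1 is low for Olfm4, Lgr5, Lrig1 and all 5 Paneth genes, and that of PBS replicate 3 is high for Olfm4 and Ascl2.

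Other genes of the crypt base and of Wnt feedback went in both directions. Of 22 listed genes 20 were measured, with 11 higher, 8 lower and Lgr4 at the floor on all 6 arrays, a median of 0.05, and 1 higher and 1 lower at an unadjusted p under 0.05, with 0 after adjustment. Axin2, a Wnt target that feeds back on the pathway and marks crypt base cells, read 7.17, 7.43 and 7.62 with free Ub, against 6.88, 6.96 and 7.12 with PBS. Its groups did not overlap, by a gap of less than 0.1 log2 (difference 0.42, adjusted p = 0.872 in limma). Tnfrsf19, or Troy, a Wnt target of crypt base cells, read 3.21, 3.80 and 3.91 with free Ub, against 2.79, 3.32 and 3.20 with PBS, with overlap. Cdx2, the transcription factor of intestinal identity, read 9.42, 9.67 and 9.57 with free Ub, against 9.86, 9.79 and 9.83 with PBS, lower in each free Ub intestine (difference -0.27, adjusted p = 0.750). Cdk6, a kinase of G1 progression, read 3.47, 3.28 and 3.98 with free Ub, against 4.48, 3.91 and 4.03 with PBS, with overlap.

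Of 9 genes listed for facultative and revival stem cells, which replace lost crypt cells after injury, 7 were measured, 4 higher and 3 lower with free Ub (median 0.02). Clu and Ly6a had no probe under these names, so the list was read without them. Anxa1, a phospholipid-binding protein induced in regenerating epithelium, read 2.97, 1.00 and 2.48 with free Ub, while every PBS array had it at the floor (adjusted p = 0.709 in limma). Sox4, a transcription factor of progenitors, read 5.58, 6.12 and 5.77 with free Ub, against 6.18, 6.45 and 6.45 with PBS, without overlap (adjusted p = 0.861). Krt19, a keratin of crypt cells, and Dll1, the Notch ligand of secretory progenitors, had differences of 0.19 and 0.44 with overlapping groups. The members of this list thus had 1 gene higher and 1 lower at an unadjusted p under 0.05, and 0 after adjustment.

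Signals of the crypt niche were mostly dim. Of 16 listed genes 15 were measured, 7 higher, 6 lower, and Rspo1 and Rspo2, which encode R-spondins, at the floor on all 6 arrays (median 0.00). Chrd, a secreted antagonist of BMP, read 3.93, 3.97 and 4.39 with free Ub, against 2.99, 2.69 and 4.12 with PBS, with overlap. Wnt5a, a Wnt ligand of the stroma, had a difference of -0.21 (adjusted p = 0.872 in limma). Tgfa, a ligand of the EGF receptor, read 0.79, the floor and 2.22 with free Ub. Foxl1, a factor of subepithelial telocytes, read the floor, 2.35 and the floor with free Ub. Neither gene had a PBS value above the floor, so the groups of each overlapped at the floor. At an unadjusted p under 0.05, 0 members of this list passed, and 0 passed after adjustment in limma.

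Markers of other cell types were read beside the members. The 7 epithelial markers had a median difference of 0.11 and the 10 enterocyte markers one of -0.06. Tuft cell markers had 5 of 7 higher and 3 higher without overlap, where 3.74% of all genes were higher without overlap. Among the 3 was Sh2d6, an adaptor protein of tuft cells, with 6.20, 6.37 and 6.26 with free Ub, against 5.65, 5.51 and 5.65 with PBS (difference 0.68, adjusted p = 0.137 in limma). Trpm5, a cation channel of taste and tuft cells, and Avil, an actin-binding protein, had differences of 1.24 and 0.33 without overlap. Pou2f3, the tuft lineage factor, went the other way, with 2.90, 3.20 and 2.87 with free Ub, against 3.18, 3.31 and 3.42 with PBS (difference -0.32, adjusted p = 0.872), Alox5ap had a difference of 0.26 with overlap, and no array had Il25 above the floor. Dclk1, also used as a tuft cell marker but listed here with the facultative stem cell genes, had a difference of 0.02 with overlap. The summed linear signal of the 7 tuft genes ranged from 319.7 to 395.5 with free Ub and from 255.1 to 297.8 with PBS. Enteric neuron and glia markers, listed because Msi1 is known from neural progenitors, had 3 higher and 3 lower of 7, with Sox10, a factor of enteric glia, at 3.78, 4.01 and 3.86 with free Ub, against 4.41, 4.08 and 4.41 with PBS, lower in each free Ub intestine. Their summed signal ranged from 81.5 to 105.4 with free Ub and from 92.7 to 104.6 with PBS. S100b and Gfap of glia and Ret of enteric neurons had differences of -0.17, 0.22 and 0.05 with overlap.

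Leukocyte markers, listed because Bmi1 is also a gene of blood stem cells, had 4 higher and 2 lower of 6 with free Ub, all with overlap. Among myeloid genes, Itgam had a difference of 1.83, Lyz2 one of 0.06 and Csf1r one of -0.34, and among T cell genes Cd8a had one of 0.97, with 2 PBS values at the floor, and Cd3e one of -0.12. Itgam read 1.80, 0.07 and 3.16 with PBS, where 0.07 is close to the floor. The summed signal of the list ranged from 541.7 to 915.2 with free Ub and from 539.7 to 1059 with PBS, and was highest in PBS replicate 3, where Bmi1 was highest too. Its part in the Bmi1 values was not tested. Endothelial markers had 2 higher and 5 lower of 7. Of these, 2 were lower without overlap, where 6.69% of all genes were lower without overlap. Their summed signal did not overlap, from 187.5 to 259.3 with free Ub and from 283.1 to 324.2 with PBS. Eng, or endoglin, read 5.28, 5.22 and 5.68 with free Ub, against 6.07, 5.88 and 5.92 with PBS (difference -0.56, adjusted p = 0.726 in limma), and Vwf, the von Willebrand factor, had a difference of -0.82, also without overlap. Tie1, Tek and Pecam1 had differences of -0.83, 0.34 and -0.12 with overlap. Vwf had the highest mean signal of the 7, and a linear sum is weighted to bright genes. The median deviation of the 7 genes from their means was -0.30 to -0.04 with free Ub and 0.04 to 0.24 with PBS. The part of the tuft and endothelial signals in the members' values was not tested. Goblet cell markers had 3 higher and 4 lower of 7, enteroendocrine markers 3 and 5 of 8, and smooth muscle and fibroblast markers 7 and 3 of 10, with medians of -0.05, -0.12 and 0.09.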

How the data were processed

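Intestinal RNA of 6 irradiated mice was hybridised to 1 array each. The authors processed raw signals in GenomeStudio (version not given in the sources used here) with cubic-spline normalization and deposited values that are read here as log2 signals, because their range fits no linear scale. The log base and the background handling are not stated. The deposited columns share their highest value and have medians of 2.55, and nothing was normalized again. Probes were named from the platform annotation, with 34885 probes of 1 symbol, 18 of several and 10378 of none. Detection p-values were not used here.

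All probes were fitted in R 4.3.3 with limma 3.58.1 (free Ub minus PBS, two-sided, no covariate), with Benjamini-Hochberg adjustment, and the fit was tested on simulated data. The labels do not say whether mice shared a cage or a day, and with 3 against 3 an exact permutation test cannot go below p = 0.1. The replicate numbers did not pair the samples. Members and lists were chosen with earlier results of these data known. Genes were named by a rule that took all members, and of each other list up to 4 genes with the smallest p and, for cell type markers, the 2 brightest. Dclk1 was named outside this rule. For brevity the epithelial, enterocyte, goblet, enteroendocrine, stromal and pancreatic lists are given by counts or sums, with Vil1 as the gene named from them. Alternatives were other scalings, floors, filters, probe means, a replicate block, array weights, an intensity trend, the t-test of the study's methods and leaving out each mouse. Promoter windows were taken from RefSeq.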

Additional observations from a re-analysis of the deposited data

How the results depend on the processing

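No stem cell marker passed an adjusted p under 0.05 under any alternative that was run (the lowest was 0.129, for Msi1 without PBS replicate 3), with 1 to 4 members at an unadjusted p under 0.05. Of 107 differences of members under alternatives that change the values, weights or samples used, 90 kept their direction and 17 reversed it. Part of this agreement was fixed in advance. Quantile normalization and median centring could hardly move arrays that already shared their medians and upper quartiles. The mean of all probes leaves Smoc2, Bmi1, Lrig1 and Tert, with a single probe each, unchanged. With values under 4 raised to 4, the differences of Lgr5, Ascl2 and Bmi1 were 0.019, -0.16 and -0.0505. With array weights those of Olfm4, Ascl2 and Tert were -0.22, -0.35 and -0.020, and 6 of 10 members were higher. With the mean of all probes of a gene, that of Olfm4 was -0.31. Leaving out each mouse gave -0.27 to 0.22 for Lgr5, -0.20 to 0.97 for Olfm4, -0.17 to 1.23 for Ascl2, -0.22 to 0.85 for Smoc2, -0.012 to 0.37 for Lrig1, -0.11 to 1.49 for Tert, 2.25 to 2.72 for Msi1, 0.56 to 1.16 for Prom1, 0.85 to 3.14 for Bmi1 and 0.27 to 0.53 for Hopx. With array weights Prom1 was at 0.59 and Bmi1 at 0.54. The count of members with a higher mean, for which alternatives were chosen after seeing the data, was 5 of the 7 still testable with values raised to 4, 5 of 6 above the floor on all arrays, and 6 to 10 without each mouse. The cycling minus reserve median was -0.56 to 0.35 without each mouse, and 0.04 for members above the floor on all arrays.

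Over all probes 24 passed in limma. The count was 0 with values raised to 4, above the median of probe means or above the floor on all arrays, 0 with the intensity trend (1736 at an unadjusted p under 0.05), 59 with array weights, and 75 to 112 without each mouse. The methods' t-test gave 11 unpaired and 0 paired after adjustment, and 900 and 612 probes at the study's threshold of fold change and unadjusted p, Msi1 being the member among them in each form. With the replicate block 0 passed (2446 at an unadjusted p under 0.05). Same-numbered samples did not deviate together (correlations of 0.00, 0.02 and -0.09 over 21349 probes), so the numbers were not taken to pair the mice. The number of arrays and the floor limit precision, and low probes can show large listed differences from floor values alone.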
